A study of Homo sapiens with 8 samples.

Results

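Long intergenic noncoding RNAs (lincRNAs) were described across 8 RNA-seq libraries of MiaPaCa-2 cells, a human cell line established from a pancreatic carcinoma. The set was taken from the deposited gene table as every row of type lincRNA with a mean of at least 1 CPM over the 8 libraries, where CPM is the count divided by the column total in units of 1e6, leaving out GAS5 and the names starting with SNHG. It held 240 of 25945 genes, and 1807 rows in all had the type lincRNA. Members were chosen by their mean level over both groups, so the levels below are a description and carry no test of expression.

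The study asked what silencing BARD1 does in this cell line. Cells labelled wild type were transfected for 48 h with a scrambled control siRNA or with BARD1 siRNA. Each group had 4 libraries, numbered 1 to 4, made from RNA captured on poly-T beads. The siRNA sequences and the number of siRNAs are not given in the sources used here.

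lincRNAs are transcripts made mostly by RNA polymerase II from stretches between protein-coding genes, many of them spliced, capped and polyadenylated but without a long open reading frame. They are known for low levels and for cell-type restricted expression. Some stay in the nucleus as parts of nuclear bodies, some bind proteins in the cytoplasm, and some are precursors of small RNAs.

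LINC00657, now named NORAD, is a cytoplasmic RNA known for repeated sequence units that carry the letters TGTANATA, written here as DNA. The longest transcripts of 181 lincRNAs were searched for these letters on the transcript strand, overlapping matches included. The transcripts came from GENCODE release 29 (GRCh38). The motif was found in 31 of 181, or 17.1%, with 16 matches in HCG11, 15 in LINC00657, 7 in FTX and 6 in NEAT1. HCG11 on chromosome 6 aligned with LINC00657 on chromosome 20 over 5254 positions, and 93.5% of these held the same base. Of the 15 LINC00657 sites 14 aligned to HCG11, and 12 of the aligned positions held the motif there too. Sites starting at transcript positions 761, 1140 and 2972 of LINC00657 are shown beside the HCG11 bases aligned with them, to show how alike the 2 RNAs are and where the motif is lost. Capitals mark the motif or the 8 bases aligned with it.
LINC00657 761: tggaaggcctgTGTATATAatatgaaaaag
HCG11 at 761: cggaaggcctgTGTATATAatatgaaaaag
LINC00657 1140: cctcactactgTGTATATAgttgacaatgc
HCG11 at 1140: cctcactactaTGTATGTAgttgacaatgc
LINC00657 2972: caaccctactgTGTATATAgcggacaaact
HCG11 at 2972: caacagtgctaTGTATATAgtggacacact

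MALAT1, a nuclear RNA of splicing speckles, has a mature end that is cut by RNase P and carries no poly(A) tail added by the usual enzyme. Its end is known to fold into a triple helix of U-rich stretches with an A-rich tract. The stretches are shown because these libraries were made on poly-T beads and the transcript has a run of As. In the annotated transcript 359 bases follow this run. How MALAT1 was captured was not tested, and 31 of the 181 transcripts searched held a run of As at least as long. Capitals mark the U-rich or A-rich bases (written with T). They were read from the 8708-base transcript, in which the run of 13 As started at position 8337.
MALAT1 U-rich stretch from 8260: catgaaggTTTTTCTTTTcctgagaaaaca
MALAT1 U-rich stretch from 8302: ttctcaggTTTTGCTTTTtggcctttttct
MALAT1 A-rich tract from 8327: tttctagcttAAAAAAAAAAAAAgcaaaag

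MIR22HG and MIR137HG, precursors of miR-22 and miR-137, are shown by the mature miRNAs that their loci hold, from RefSeq (GRCh38.p14). Capitals mark the seed, bases 2 to 8, and no 2 of the 4 seeds are the same.
miR-22-3p: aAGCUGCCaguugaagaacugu
miR-22-5p: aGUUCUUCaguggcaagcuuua
miR-137-3p: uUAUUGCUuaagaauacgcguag
miR-137-5p: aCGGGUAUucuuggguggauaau

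Total gene counts ran from 24458665 to 36212716 per library. BARD1 was at 26.9, 28.0, 26.9 and 20.8 CPM in control siRNA libraries 1 to 4 and at 3.56, 2.24, 2.45 and 7.59 CPM in BARD1 siRNA libraries 1 to 4, with a log2 fold change of -2.69 (SE 0.36, adjusted p = 0.00397 by edgeR). Both libraries numbered 4 stood apart from the rest. Mitochondrially encoded genes took 3.26% and 4.44% of their counts against 0.695% to 2.02% in the others, and the pair numbered 4 kept the most BARD1. The epithelial keratins KRT8 (1540 to 3343 CPM) and KRT18 (442 to 1037 CPM) were high in every library, as was VIM (1632 to 2043 CPM), a mesenchymal marker that fibroblasts also express. Of the fibroblast and endothelial markers read here, LUM and VWF did not pass 0.196 CPM, DCN did not pass 1.35 CPM and COL1A1 lay at 0.617 to 2.01 CPM. The leukocyte, acinar, endocrine and liver markers were not analysed here.

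The lincRNAs were scarce beside messenger RNAs. Their mean level per length over the 8 libraries had a median of 2.12 FPKM (the authors' counts scaled to gene length and column total), with quartiles of 1.02 and 4.64 FPKM, against a median of 9.21 FPKM over 11399 protein-coding genes at 1 CPM or more. In CPM the median was 2.63, with 46 lincRNAs at 10 CPM or more and 5 at 100 CPM or more. LINC00657, MALAT1 and NEAT1 together held 33.4% of the counts of the set. All 240 had at least 1 read in every library and all passed the filter on low counts. Just inside the limit lay RP11-247L20.4 at 1.001, AC023490.1 at 1.007 and CTD-2085J24.4 at 1.015 CPM. Just outside it lay CTD-2528L19.6 at 0.9999 and RP11-401P9.4 at 0.981 CPM, with 1 more row between them at 0.999 CPM.

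The names show how little most of these genes are described. Of the 240, 196 carried clone names, 20 LINC numbers, 10 names of antisense RNAs and 14 other names. They lay on 22 chromosomes, with 24 on chromosome 19 and 23 on chromosome 1, and their exonic length had a median of 1689 bases (278 to 22743). In GENCODE release 29, 181 of the gene identifiers were found, 146 of them still typed as lincRNA. A protein-coding type was given to 8. Among these were LINC00116, now MTLN, which encodes the mitochondrial micropeptide mitoregulin, LINC00493, now SMIM26, and RP11-21N3.1, now NCBP2AS2. Small nucleolar RNA hosts that the rule on names did not leave out include RP11-304L19.5, now SNHG19, and RP11-1094M14.11, now SNHG30. The set also held SNORD3A, which has the name of a small nucleolar RNA.

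By level per length, GS1-600G8.5 (now LINC02154, X chromosome) was the highest at 130 FPKM. XXyac-YX65C7_A.3 followed at 97.2 FPKM, LINC00657 at 68.2, UCA1 at 42.6, RP11-21N3.1 and RP11-304L19.5 at 37.8 each, MALAT1 at 36.4 and CTC-503J8.6 at 34.8 FPKM. UCA1, first described in bladder carcinoma, and LINC00152 (now CYTOR), at 23.5 FPKM, are RNAs often found raised in tumours. The longest release 29 transcript of LINC00657 shared 35.3% of its 50-base stretches with other genes (22.7% with OVCH1-AS1), and that of LINC00152 shared 19.1% with MIR4435-2HG. For UCA1 the share was 16.4%, with 14.8% in LINC01764 on the opposite strand, and for HCG11 it was 7.77%. Reads of such stretches may have been split or mixed, so the levels of LINC00657, HCG11, LINC00152 and UCA1 are uncertain. GS1-600G8.5, XXyac-YX65C7_A.3, RP11-21N3.1, RP11-304L19.5 and PRKCQ-AS1 shared no such stretch.

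**Figure D1:**
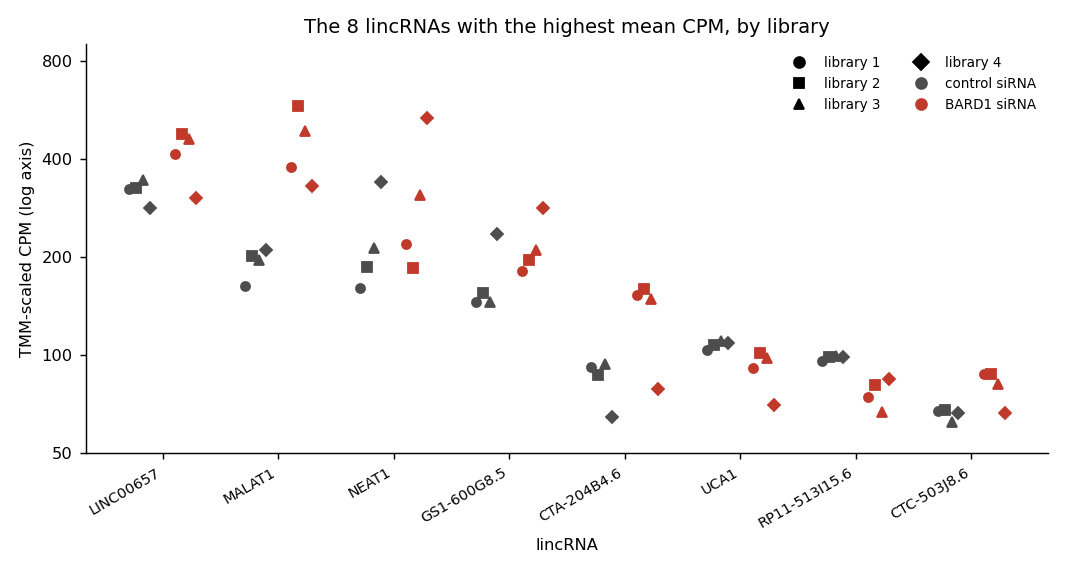
TMM-scaled CPM (log axis) of the 8 lincRNAs with the highest mean CPM, each point 1 library, marker shape by library number and colour by siRNA. The groups do not overlap for MALAT1, UCA1 and RP11-513I15.6, and NEAT1 and GS1-600G8.5 are highest in the libraries numbered 4.

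With BARD1 siRNA 5 lincRNAs rose and 4 fell, and 231 did not pass the test (edgeR quasi-likelihood test, Benjamini-Hochberg adjusted p below 0.05 over 14528 genes tested). The 9 made up 3.75% of the set, against 5.05% of all genes tested. In each direction the shares were 2.08% against 1.82% higher and 1.67% against 3.22% lower. The share higher counts PRKCQ-AS1, which reached the 1 CPM limit only through the libraries with BARD1 siRNA. The rule itself therefore raised that share, and 2.08% against 1.82% shows no excess. MALAT1, PRKCQ-AS1, RP11-14N7.2, AF127936.7 and LINC00116 rose, and RP11-41O4.2, CTB-175P5.4, RP11-343N15.5 and RP11-513I15.6 fell. In RNA from whole cultures, fewer cells with an RNA and less RNA per cell cannot be told apart.

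The median log2 fold change of the set was 0.07, against 0.01 over all genes tested. Quartiles were -0.16 and 0.32, and the values ran from -1.32 to 1.76. Without control siRNA library 4 the median was 0.15, and without BARD1 siRNA library 4 it was -0.02. The standard errors were wide, with a median of 0.30 against 0.17 over all genes tested, and of 0.33 below 10 CPM against 0.15 at 10 CPM or more. At an unadjusted p below 0.05 stood 31 lincRNAs, 18 higher and 13 lower, or 12.9% of the set. Of all genes tested 18.9% stood there, 9.08% higher and 9.82% lower.

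The replicate numbers were taken to pair the libraries, as set out in the account of the processing. With the replicate number as a block, 22 lincRNAs rose and 12 fell, or 14.2% of the set against 23.6% of all genes tested. Without both libraries numbered 4, 24 rose and 13 fell, or 15.4% against 30.4% of all genes. All 9 calls made without the block were among the 34 with it and among the 37 without those libraries, and 30 were shared by the last 2. By the authors' deposited table, an adjusted p of 0.05 was passed by 14 lincRNAs, 7 in each direction and including the same 9, with a share over all genes of 9.61%.

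**Figure D2:**
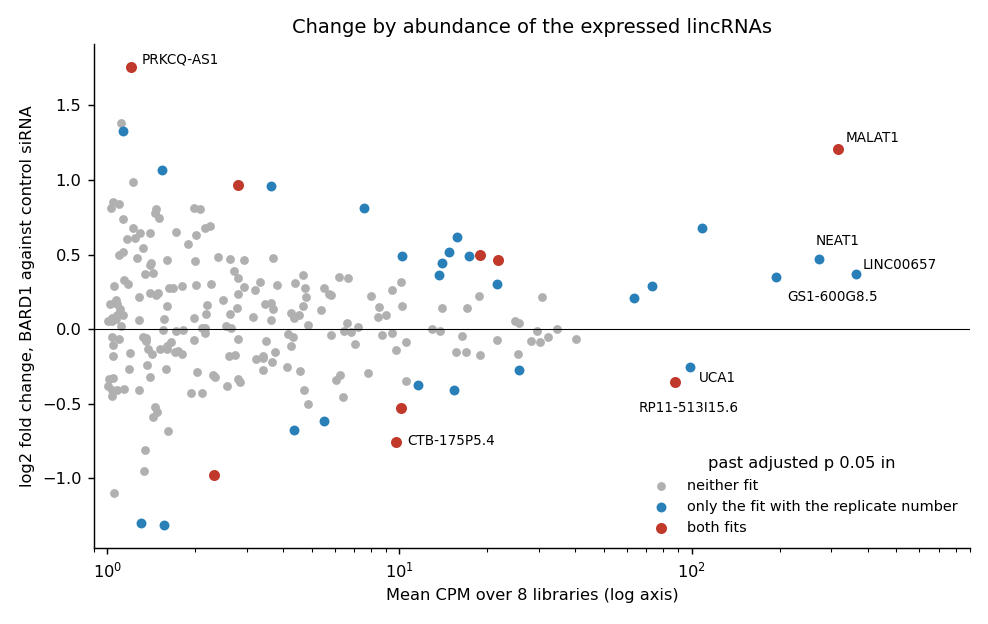
Log2 fold change of BARD1 siRNA against control siRNA plotted against mean CPM over the 8 libraries (log axis) for the 240 lincRNAs. Red points passed the edgeR test in both fits, blue points only with the replicate number as a block; the scatter is widest at 1 to 3 CPM, and MALAT1 is the only point above 10 CPM past a log2 fold change of 1.

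MALAT1 had the smallest adjusted p of the set. Its level in control siRNA libraries 1 to 4 was 163, 201, 196 and 209 CPM, and in BARD1 siRNA libraries 1 to 4 it was 377, 583, 486 and 330 CPM. All 4 libraries with BARD1 siRNA lay above all 4 controls, the lowest being number 4. The mean rose 2.31-fold, from 192 ± 20.4 to 444 ± 113 CPM (SD, n = 4 each), with a log2 fold change of 1.21 (SE 0.17, adjusted p = 0.00563 by edgeR). Within pairs of the same number the log2 differences were 1.21, 1.53, 1.31 and 0.65. The call held with any library left out, at adjusted p values up to 0.0327. MALAT1 (ENSG00000251562) lies at chr11:65265233-65273940 on the plus strand (GRCh37), in a stretch with no other gene of the table.

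PRKCQ-AS1, named for the protein kinase C theta gene on chromosome 10, had the highest fold change of the set. It was at 0.782, 0.501, 0.660 and 0.255 CPM in the controls and at 1.96, 1.92, 1.73 and 1.83 CPM with BARD1 siRNA. The groups did not overlap, and the lowest value was control library 4. On the log2 scale it rose by 1.76 (SE 0.36, adjusted p = 0.0251 by edgeR), at a level close to the 1 CPM limit. Every control lay below that limit, so it entered the set only through the libraries with BARD1 siRNA. Its rank in the set depends in part on that limit. The log2 fold change of this gene in the authors' deposited table was 1.02, with an adjusted p also below 0.05. DESeq2 on these counts gave 1.77. How the authors computed their fold changes was not examined, so 1.02 and 1.76 may not be on a common scale.

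RP11-14N7.2 (now LINC02802, chromosome 1) was at 1.52, 1.54, 1.95 and 2.55 CPM in the controls and at 3.45, 4.13, 3.84 and 3.46 CPM with BARD1 siRNA, with no overlap. Its log2 fold change was 0.97 (SE 0.23, adjusted p = 0.0457 by edgeR). Of its 50-base stretches 68.0% also lay in AC006453.2, a transcribed pseudogene on chromosome 2, so its reads may be shared.

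AF127936.7, on chromosome 21 79260 bases downstream of the nuclear receptor cofactor gene NRIP1, had tight replicates. The controls were at 17.0, 14.8, 15.7 and 15.4 CPM and the libraries with BARD1 siRNA at 23.2, 22.2, 22.7 and 20.5 CPM, again without overlap. It rose by 0.49 on the log2 scale (SE 0.10, adjusted p = 0.0219 by edgeR). Its gene body overlaps RBMX2P1, and 23.1% of its 50-base stretches also lay in LINC02246, so its reads may be shared. NRIP1 itself went from 4.58 ± 0.464 to 5.63 ± 0.446 CPM (SD, n = 4 each, edgeR adjusted p = 0.362). LINC00116, which by the later annotation encodes mitoregulin, was at 18.6, 19, 17.8 and 17.8 CPM in the controls and at 23.2, 29.4, 22.9 and 25.3 CPM with BARD1 siRNA. Its groups did not overlap, with a log2 fold change of 0.46 (SE 0.11, adjusted p = 0.039 by edgeR). The gene body of LINC00116 overlaps RP11-1223D19.1, so reads may be mixed there.

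Among the falls, RP11-41O4.2 (now LINC01910, chromosome 18) was at 2.76, 2.80, 3.30 and 3.48 CPM in the controls and at 2.05, 1.40, 1.42 and 1.39 CPM with BARD1 siRNA. BARD1 siRNA library 1 was the highest of its group and still below every control. On the log2 scale it fell by 0.98 (SE 0.23, adjusted p = 0.0449 by edgeR).

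CTB-175P5.4 (now LINC01224) lies in a zinc finger gene cluster of chromosome 19. It was at 9.92, 13.0, 12.1 and 14.0 CPM in the controls and at 7.30, 8.26, 6.36 and 7.12 CPM with BARD1 siRNA. The groups did not overlap, and the log2 fold change was -0.76 (SE 0.15, adjusted p = 0.0231 by edgeR). It lies 3673 bases upstream of its nearest protein-coding gene, ZNF91, on the same strand. ZNF91 encodes a zinc finger repressor of SVA retrotransposons. ZNF91 moved the other way, from 25.1 ± 1.63 to 32.9 ± 2.12 CPM (SD, n = 4 each, a log2 difference of 0.39, edgeR adjusted p = 0.0373).

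RP11-343N15.5 on chromosome 1, which has no gene of its identifier in release 29, was at 10.8, 11.7, 11.6 and 13.4 CPM in the controls and at 8.03, 8.52, 7.53 and 8.88 CPM with BARD1 siRNA. Every library with BARD1 siRNA lay below every control, and the log2 fold change was -0.53 (SE 0.13, adjusted p = 0.047 by edgeR). The gene body of RP11-343N15.5 overlaps RP11-343N15.1, so reads may be mixed there. RP11-513I15.6 on chromosome 6 was at 96.0, 98.7, 99.5 and 98.5 CPM in the controls and at 74.5, 81.1, 66.7 and 84.6 CPM with BARD1 siRNA. The controls lay within 4 CPM of each other and above the whole other group. Its log2 fold change was -0.36 (SE 0.09, adjusted p = 0.0463 by edgeR).

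RP11-513I15.6 ended 1452 bases from the end of NUDT3, a gene for a diphosphoinositol phosphatase, on the opposite strand by the coordinates of the files. In release 29 all of its 50-base stretches (100%) lay, on the opposite strand, in a NUDT3 transcript. The counts were not known to use strand, so reads of the 2 genes cannot be told apart there. NUDT3 as annotated in the files went from 20.9 ± 2.03 to 18.0 ± 1.66 CPM (SD, n = 4 each, a log2 difference of -0.21, edgeR adjusted p = 0.37).

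Apart from MALAT1, the calls were sensitive to single libraries. LINC00116, RP11-41O4.2, RP11-513I15.6 and RP11-343N15.5 passed again only without BARD1 siRNA library 4 and missed the threshold with each of the other 7 libraries left out in turn. AF127936.7, PRKCQ-AS1 and RP11-14N7.2 missed it without each of the 6 libraries numbered 1 to 3. CTB-175P5.4 missed it without control libraries 2 or 3 or BARD1 siRNA libraries 1 to 3. The highest adjusted p of these 8 lincRNAs lay between 0.093 and 0.151 (edgeR), and the direction was the same in every such fit. Without 1 of the libraries numbered 1 to 3, the adjusted p of BARD1 also rose, from 0.00397 to between 0.0128 and 0.0252 (edgeR). The share of all genes that passed in these fits is not given.

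**Figure D3:**
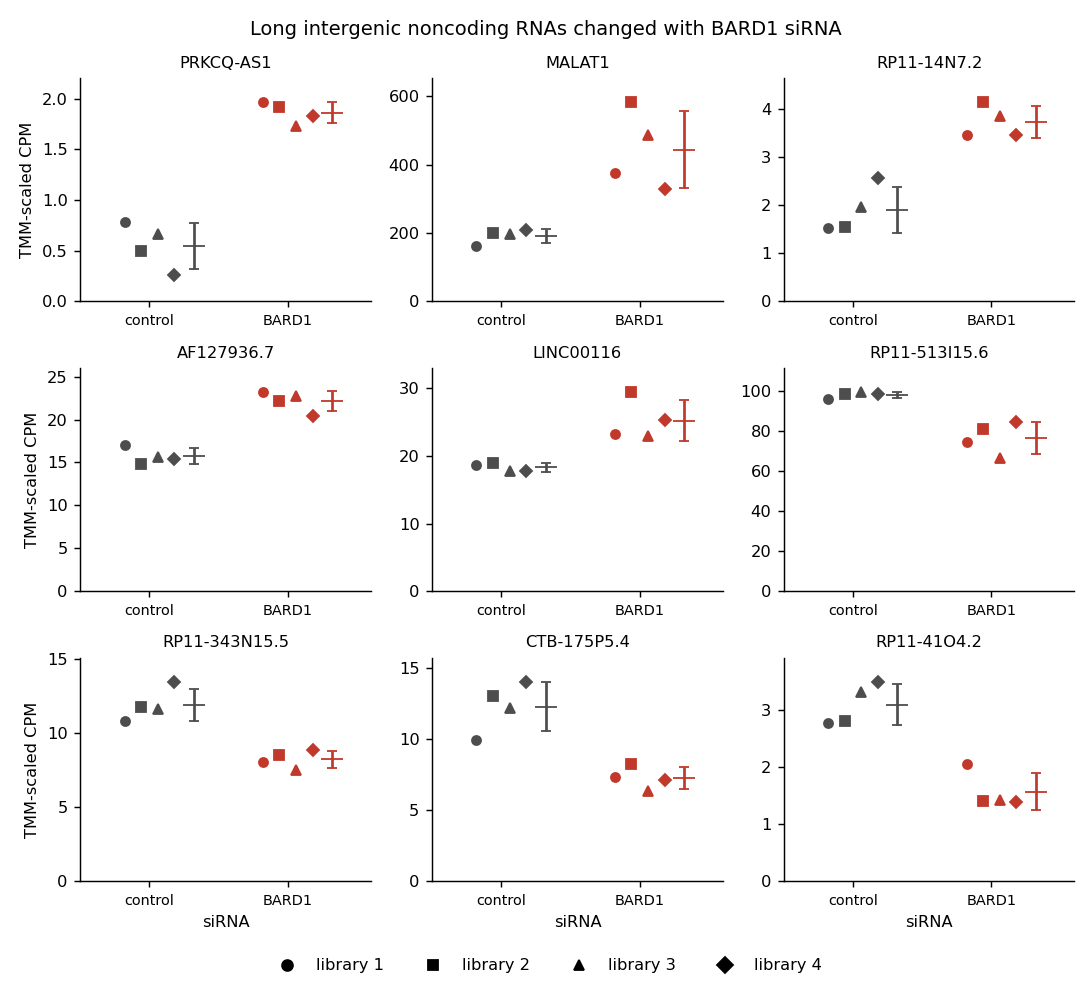
TMM-scaled CPM by library for the 9 lincRNAs that passed the edgeR test, each point 1 library, with marker shape by library number; horizontal marks and bars give the mean and SD of 4 libraries. In no panel do the control and BARD1 siRNA libraries overlap, but the panels were picked by a test on these same values. Other lincRNAs that did not pass the test had groups without overlap too, among them FTX, UCA1, RP4-594I10.3, FLVCR1-AS1 and RP5-935K16.1. The share of such genes in the set and over all genes tested is not given, so a lack of overlap does not mark out those that passed.

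LINC00657 did not pass the test without the block. It was at 323, 326, 344 and 283 CPM in the controls and at 413, 475, 460 and 303 CPM with BARD1 siRNA. Libraries 1 to 3 with BARD1 siRNA lay above all controls, and library 4 lay among them. The log2 fold change was 0.37 (SE 0.14, adjusted p = 0.174 by edgeR), a p that became 0.00142 with the replicate block and 0.00299 without BARD1 siRNA library 4. HCG11, its near copy, was at 29.6, 28.1, 27.4 and 28.9 CPM in the controls and at 36.3, 35.9, 33.9 and 26.1 CPM with BARD1 siRNA. Libraries 1 to 3 with BARD1 siRNA lay above all controls, and library 4 lay below them all. Its log2 fold change was 0.21 (edgeR adjusted p = 0.361, and 0.133 with the replicate block). The edgeR adjusted p was 0.0248 without BARD1 siRNA library 4 and 0.00484 without both libraries numbered 4.

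NEAT1 is the RNA around which paraspeckles form. It was at 160, 186, 213 and 339 CPM in the controls and at 219, 185, 309 and 534 CPM with BARD1 siRNA. In both groups library 4 was the highest, and the groups overlapped. The log2 fold change was 0.47 (SE 0.34, adjusted p = 0.524 by edgeR), a p that became 0.00295 with the replicate block. Without BARD1 siRNA library 4 the log2 fold change was 0.08, and without control library 4 it was 0.74. NEAT1 lies 9249 bases downstream of FRMD8 on the same strand, and FRMD8 had a log2 fold change of 0.55 (edgeR adjusted p = 0.0307).

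The X-linked RNAs FTX and JPX, both known in mice as positive regulators of X inactivation, did not pass the test. FTX was at 1.81, 1.04, 1.32 and 2.11 CPM in the controls and at 2.25, 2.76, 2.45 and 2.30 CPM with BARD1 siRNA, without overlap (log2 fold change 0.63, SE 0.27, adjusted p = 0.247 by edgeR). JPX had overlapping groups, at 26.9 ± 2.48 and 23.9 ± 1.66 CPM (SD, n = 4 each, a log2 difference of -0.17, edgeR adjusted p = 0.433). In release 29 the longest transcript of FTX lies to 79.1% on the opposite strand of JPX, so their reads may be mixed.

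UCA1 was at 104, 107, 110 and 109 CPM in the controls and at 91.0, 101, 97.8 and 70.0 CPM with BARD1 siRNA. The groups did not overlap, and library 4 was the lowest. Its log2 fold change was -0.26 (SE 0.11, adjusted p = 0.251 by edgeR), with an adjusted p of 0.0274 under the replicate block and 0.0618 without both libraries numbered 4. LINC00152 at 25.4 ± 3.29 and 26.1 ± 2.02 CPM (SD, n = 4 each) and LINC00667 at 13.2 ± 1.01 and 14.6 ± 0.89 CPM had overlapping groups (edgeR adjusted p = 0.922 and 0.589).

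The miRNA hosts differed in pattern. MIR22HG was at 11.6, 11.7, 13.5 and 11.8 CPM in the controls and at 17.2, 14.4, 25.7 and 12.4 CPM with BARD1 siRNA. Libraries 1 to 3 with BARD1 siRNA lay above all controls and library 4 among them. Its log2 fold change was 0.52 (SE 0.21, adjusted p = 0.214 by edgeR, and 0.0187 with the replicate block). Without BARD1 siRNA library 3 the value was 0.27, and without BARD1 siRNA library 4 it was 0.65 (edgeR adjusted p = 0.0313). MIR137HG had overlapping groups at 31.2 ± 5.89 and 29.5 ± 5.78 CPM (SD, n = 4 each, a log2 difference of -0.08, edgeR adjusted p = 0.879). No mature miRNA was measured, so the 4 sequences given above stand only for what these loci encode.

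Of the other lincRNAs high per length, GS1-600G8.5 was at 145, 155, 145 and 235 CPM in the controls and at 181, 196, 209 and 282 CPM with BARD1 siRNA. Within each group library 4 was the highest, and each library with BARD1 siRNA was above the control of the same number. The log2 fold change was 0.35 (SE 0.19, adjusted p = 0.364 by edgeR, and 0.000519 with the replicate block), 0.54 without control library 4 and 0.20 without BARD1 siRNA library 4. XXyac-YX65C7_A.3 was at 49.4, 46.7, 42.7 and 94.0 CPM in the controls and at 51.8, 54.8, 49.0 and 113 CPM with BARD1 siRNA. Library 4 was far above the rest in both groups (log2 fold change 0.21, edgeR adjusted p = 0.821, and 0.0418 with the replicate block).

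CTC-503J8.6 was at 67.4, 67.8, 62.3 and 66.2 CPM in the controls and at 87.3, 87.3, 81.3 and 66.4 CPM with BARD1 siRNA, library 4 alone falling among the controls (log2 fold change 0.29, edgeR adjusted p = 0.134, 0.0123 with the replicate block and 0.00467 without that library). CTC-503J8.6 has no gene of its identifier in release 29. It starts 474 bases downstream of a protein-coding gene on the same strand, so reads of both may be mixed. RP11-21N3.1 (34.8 ± 1.87 and 34.8 ± 2.41 CPM) and RP11-304L19.5 (12.8 ± 1.65 and 12.8 ± 4.96 CPM) had overlapping groups, and their log2 fold changes rounded to 0.00 (SD, n = 4 each, edgeR adjusted p = 0.998 for both).

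CTA-204B4.6 and TERC fall outside the rule for named genes and were chosen after their values were seen. CTA-204B4.6, which starts 1664 bases downstream of the Argonaute gene AGO2 on the same strand, was at 92.1, 86.8, 94.0 and 64.7 CPM in the controls and at 153, 159, 149 and 78.6 CPM with BARD1 siRNA. In libraries 1 to 3 the groups were far apart, and both libraries numbered 4 were low. Its log2 fold change was 0.68 (edgeR adjusted p = 0.109, and 9.4e-05 with the replicate block). AGO2 had a log2 fold change of 0.36 (edgeR adjusted p = 0.552, and 0.0176 with the replicate block). TERC, the RNA component of telomerase, whose mature form is not polyadenylated, ranged from 0.126 CPM in control library 3 to 2.30 CPM in control library 4. Its groups overlapped (log2 fold change 0.68, SE 0.70, adjusted p = 0.696 by edgeR).

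The position of the genes was not used to choose them. The nearest tested protein-coding gene lay upstream on the same strand for 81 of the 240, head to head for 54, and at an overlap for 39. For 53 lincRNAs the start lay within 10 kb downstream of a protein-coding gene on the same strand. Of these 53, 30 had no gene of their identifier in release 29, against 29 of the other 187. Across these 53 the log2 fold changes of lincRNA and neighbour had a Spearman rho of 0.33, against 0.07 across the other 187. The points share the same 8 libraries, and reads past the annotated end of a gene were not counted apart. Of the 9 lincRNAs that changed, 0 had a nearest protein-coding gene that changed in the same direction by the edgeR test, and CTB-175P5.4 had 1 that changed in the other. With the replicate block 1 nearest gene passed in the same direction, FAM72B, 277575 bases from RP11-343N15.5 (edgeR adjusted p = 0.0348). In the other direction 2 passed, ZNF91 and PFKFB3 (edgeR adjusted p = 0.00192 and 0.0226). PFKFB3 lies 344886 bases from PRKCQ-AS1. Over all genes tested 23.6% passed with the block, against 5.05% without it.

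**Figure D4:**
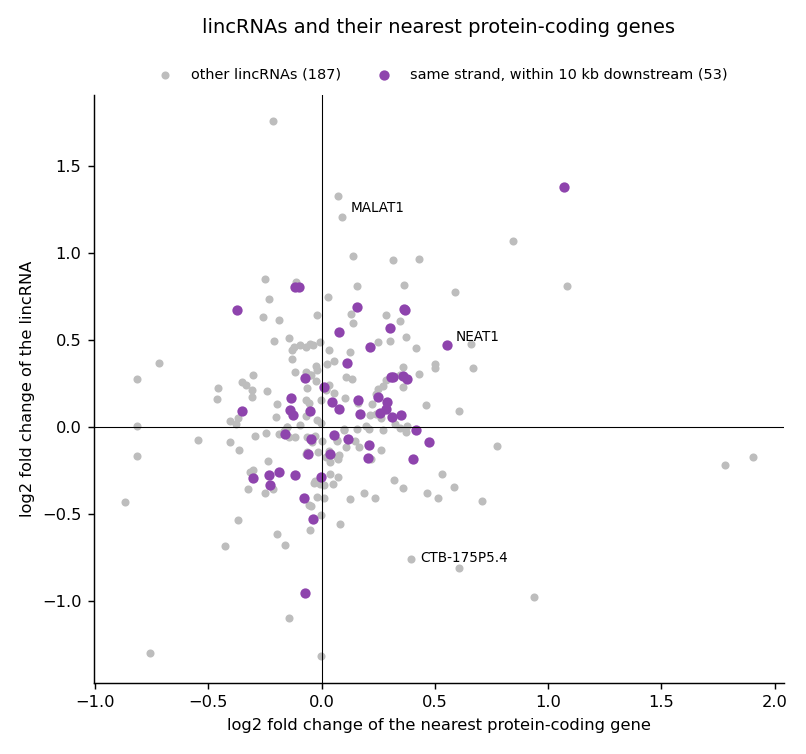
Log2 fold change of each of the 240 lincRNAs against that of its nearest tested protein-coding gene, BARD1 siRNA against control siRNA. Purple points are the 53 lincRNAs within 10 kb downstream on the same strand (Spearman rho 0.33), and grey points are the other 187 (0.07); both scatter widely around 0.

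Many of the lincRNAs also differed with the library number. In a fit with a term for siRNA, 55 lincRNAs were higher and 14 lower in the libraries numbered 4 than in the rest, or 22.9% and 5.83% of the set (edgeR adjusted p below 0.05). Over all genes tested 22.1% were higher and 24.1% lower. The median log2 difference of the set was 0.29, against 0.02 over all genes. The largest were AP000345.4 at 2.16, RP11-44N21.1 at 1.90 and RP11-329L6.1 at 1.77, and the lowest were AC112721.2 at -1.67, RP11-255B23.4 at -1.54 and CTD-2207P18.2 at -1.36. NEAT1 was higher by 1.02, XXyac-YX65C7_A.3 by 1.08, and TERC by 1.61 on this log2 scale (edgeR adjusted p = 5.51e-06, 1e-08 and 0.0151). LINC00657 fell by 0.39 and CTA-204B4.6 fell by 0.72 (edgeR adjusted p = 0.000316 and 4.3e-06). None of the 9 lincRNAs that changed with BARD1 siRNA passed this test. They were called on the same libraries without a term for the library number, where a shift of number 4 widens the error. Such lincRNAs were therefore unlikely to be among the 9, and the 0 does not show that the calls are free of this difference.

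**Figure D5:**
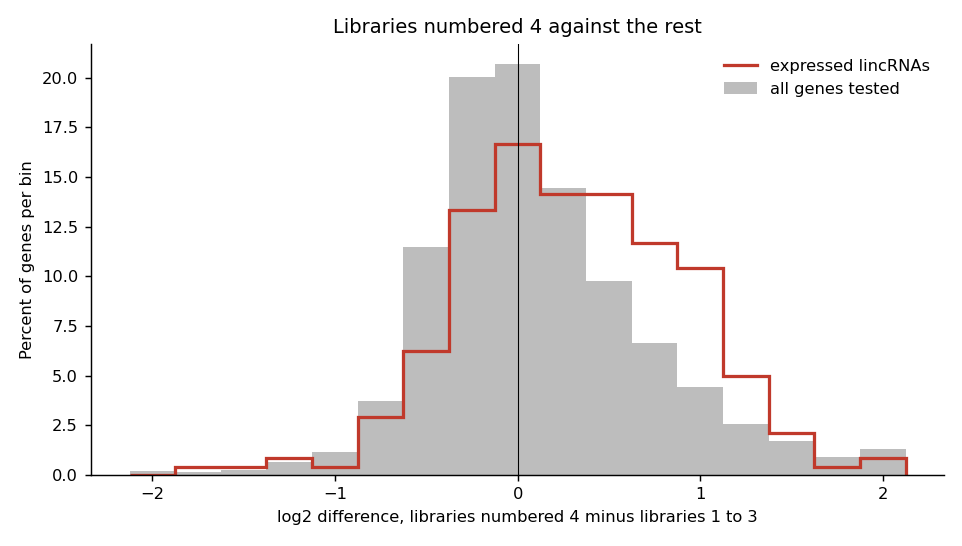
Share of genes per bin of the log2 difference between the libraries numbered 4 and libraries 1 to 3, with a term for siRNA, for all genes tested (grey) and the 240 lincRNAs (red line); the end bins also hold values beyond them. The lincRNAs lie further to the right, with a median of 0.29 against 0.02.

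As a share of all gene counts, the set took 0.234%, 0.241%, 0.248% and 0.303% in control libraries 1 to 4 and 0.284%, 0.303%, 0.313% and 0.354% with BARD1 siRNA. Each library with BARD1 siRNA was above the control of the same number, while control library 4 lay within the range of the other group. LINC00657, MALAT1 and NEAT1 together held 0.0636% to 0.0875% of the counts in the controls and 0.0993% to 0.125% with BARD1 siRNA. The share is a description, and the mitochondrial share given above moved with the libraries numbered 4; its part in the result was not tested.

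Earlier results on these data had drawn attention to the octamer ATACAGAA, so it was counted in the lincRNAs as well. It was searched on the transcript strand of all release 29 transcripts of each gene, followed by its heptamers ATACAGA and TACAGAA and the hexamer TACAGA, each gene counted under the longest match. The octamer was found in 20 of 181 lincRNAs (11%), of which 1 rose and 0 fell by the edgeR test, with a median log2 fold change of -0.03. A heptamer was the longest match in 37 (1 rose and 2 fell, median 0.07) and the hexamer in 38 (2 rose and 1 fell, median 0.03). None of these letters was found in 86 (47.5%), of which 1 rose and 0 fell, with a median of 0.14. Over all genes tested 1.82% rose and 3.22% fell. The exonic length had a median of 2420.5 bases in the first class and 819.5 in the last.

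Genes of nuclear RNA decay were read from a list, most of them for the exosome and its adaptors, which degrade many noncoding transcripts. The list also held XRN2, RPP14 and ELAC2, which are not exosome genes. RPP14 was scarce, at 0.499 CPM with control and 0.398 CPM with BARD1 siRNA. Of 27 listed and tested, 0 rose and 0 fell (edgeR), with 2 higher and 2 lower at an unadjusted p below 0.05, and DESeq2 called 1 higher. With the replicate block 3 rose and 1 fell. Over all genes tested 1.82% rose and 3.22% fell, and with the block 11% rose and 12.6% fell. Of 25 genes for proteins known to bind lincRNAs, 0 rose and 1 fell, against 0 and 6 at an unadjusted p below 0.05. The one that fell was RBMX, which encodes a nuclear RNA-binding protein that associates with NORAD. It went from 460 ± 23.8 to 360 ± 13.6 CPM (SD, n = 4 each, a log2 difference of -0.35, SE 0.07, adjusted p = 0.0283 by edgeR). With the replicate block 1 rose and 9 fell. Median log2 fold changes were -0.02 and -0.04 for the 2 lists, against 0.01 over all genes tested.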

How the data were processed

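The tools named in the submitters' processing notes are featureCounts, HISAT2 (2.0.5) and fastp, and the build is GRCh37 (hg19). Neither the annotation release nor the use of strand is given in the sources used here. Reads from overlapping genes on opposite strands therefore cannot be told apart. The authors deposited whole-number read counts per gene and FPKM values, which were rebuilt from counts, gene lengths and column totals within a relative difference of 5e-12. Their deposited table also gave log2 fold changes and adjusted p-values of their own. 8 further per-sample columns were not used, and 22217 rows that named no gene held 0 reads.

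Tests on these counts used edgeR 4.0.16 in R 4.3.3, with filterByExpr, TMM scaling, quasi-likelihood F-test of 4 against 4 libraries, two-sided, adjusted over 14528 genes. CPM per library are TMM-scaled; membership used unscaled CPM. DESeq2 (version 1.42.0), other scalings and filters, each library left out, and a replicate block were alternatives. Log2 fold changes have the standard error implied by the F statistic. As no label names separate cultures, the p-values reflect the spread among these libraries alone, and that spread may be technical. Intervals were not computed for levels, and the floor of 3 counts was 0.0828 to 0.123 CPM, counting error only.

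The pairing comes from the numbers in the labels and a check: deviations from group means of same-numbered libraries correlated at 0.47, 0.478, 0.57 and 0.853 over 10744 genes, against 0.357 to 0.487 for unlike numbers 1 to 3 and -0.685 to -0.538 between number 4 and the rest. The values for numbers 1 and 2 lie within the range of unlike numbers, so the pairing rests mostly on number 4. Every pair of libraries of a group differed by more than sampling noise (chi-square per degree of freedom of 6.06 or more).

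Named were the lincRNAs past the threshold, the 8 highest in FPKM, names of the form MIR and HG, and those found in the set among a list of well-known lincRNAs. The set, the lists and the octamer were chosen with earlier results of these data known. GENCODE release 29 (GRCh38) gave only types, names and transcript sequences, and 176 of 240 identifiers matched the name table. The nearest protein-coding gene of 1 named lincRNA is not reported here. The test was checked on simulated data.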

Additional observations from a re-analysis of the deposited data

Results flagged for a closer look

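The named lincRNAs, BARD1, the share of counts in the set, the mitochondrial share and the total counts were examined in both groups, 56 groups of 4 libraries in all, for a library far from the other 3. In 7 a library stood apart, where chance flags about 1 in 20 groups, or 2.8 here, and 5 of the 7 were a library numbered 4. XXyac-YX65C7_A.3 was at 94.0 CPM in control library 4 (42.7 to 49.4 in the others) and at 113 CPM in BARD1 siRNA library 4 (49.0 to 54.8). GS1-600G8.5 was at 235 CPM in control library 4 (145 to 155), and RP11-304L19.5 at 20.3 CPM in BARD1 siRNA library 4 (9.99 to 10.8). BARD1 was at 20.8 CPM in control library 4 (26.9 to 28.0). RP11-41O4.2 was at 2.05 CPM in BARD1 siRNA library 1 (1.39 to 1.42), and MIR22HG at 13.5 CPM in control library 3 (11.6 to 11.8).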

How the results depend on the processing

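Of 461 values recomputed under alternatives, 315 kept their direction and side of the threshold or moved by less than the spread between replicates. The 5 lincRNAs higher became 2 without a filter on low counts, 22 with the replicate block, 24 without both libraries numbered 4, 3 among lincRNAs that overlap no other gene, and 1 to 14 with a library left out. The 4 lower became 2 with upper-quartile scaling, 1 without the filter, 7 with DESeq2, 12 with the block, 13 without the libraries numbered 4, and 0 to 8 with a library left out. Over all genes tested 23.6% passed with the block and 30.4% without the libraries numbered 4. For the other settings the share over all genes is not given, so these counts do not show what is particular to lincRNAs. The median of 0.07 ranged from -0.025 to 0.15 with a library left out, and the mean share of counts without LINC00657 was 0.225% with control and 0.272% with BARD1 siRNA. For nuclear RNA decay the 0 higher became 1 with upper-quartile scaling and with DESeq2, 3 with the block, 0 to 3 with a library left out and 4 without the libraries numbered 4, and the 0 lower became 1 with the block and 4 without those libraries. For the partner proteins the 0 higher became 1 with the block and without the libraries numbered 4, and 0 to 1 with a library left out. The 1 lower became 0 without the filter, 9 with the block, 8 without those libraries and 0 to 3 with a library left out.

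Signs turned only for lincRNAs that had not passed the test. RP11-21N3.1 was at 0.0045 with DESeq2 size factors in edgeR, 0.025 with upper-quartile scaling, 0.0036 with DESeq2 and 0.048 without the libraries numbered 4, and from -0.035 to 0.043 with a library left out. RP11-304L19.5 was at -0.0054 without the filter, -0.048 with the block and -0.22 without the libraries numbered 4, and from -0.31 to 0.10 with a library left out. With a library left out XXyac-YX65C7_A.3 ranged from -0.17 to 0.54, MIR137HG from -0.18 to 0.055 and LINC00152 from -0.039 to 0.12. The cause was not tested, apart from fewer libraries and more genes tested by construction. Below 10 CPM the standard errors limit what this depth can show.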
